A study of Mus musculus with 19 samples.

Results

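Heme synthesis enzymes were followed by the gene symbols of 8 members, namely Alas1, Alas2, Alad, Uros, Urod, Cpox, Ppox and Fech, which were 8 of 23337 symbols and 9 of 30455 RefSeq transcripts in the deposited RNA-seq tables. All 8 members passed the filter on low counts. The libraries came from a mouse study that asked whether cystic embryoid bodies (cystic EBs, fluid-filled aggregates of differentiating embryonic stem cells) model yolk sac endoderm (ysE). Total RNA depleted of ribosomal RNA was sequenced from cystic EBs at day 10 and day 15 (2 libraries each), ysE at E12.5 (1 library), ysE at E9.25 (2), mesoderm of the visceral yolk sac (VYS) at E9.25 (2) and fetal liver at E12.5 (2).

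Cystic EBs were grown without treatment from the C57BL/6 by 129 ES cell clones A9 (XY, replicate A) and JN (XX, replicate B). The tissues for RNA came from FVB mice with the litter pooled for a sample. The ysE was peeled off after digestion with Dispase, and the mesoderm samples also hold blood vessels and basement membrane. Libraries of clone A9 and of liver were made with ScriptSeq, those of clone JN, E9.25 ysE and mesoderm with a dUTP protocol, and the E12.5 ysE library without strand, a protocol that no other library had. Clone, sex and protocol therefore cannot be told apart in cystic EBs, nor can tissue and protocol for E12.5 ysE, or for mesoderm against liver. Counts per library summed to 40453779 to 169981821.

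Heme is made by a chain of enzymes that begins and ends in the mitochondrion. ALAS joins glycine to succinyl-CoA to give aminolevulinic acid, and it exists as the ubiquitous ALAS1 and the erythroid ALAS2. In the cytosol ALAD pairs aminolevulinic acid into porphobilinogen, a further enzyme that was not analysed here links these units, UROS closes the ring and UROD trims its side chains. Between the mitochondrial membranes CPOX turns propionate side chains into vinyl groups and PPOX oxidises the ring, and ferrochelatase (FECH) inserts iron. Red cell precursors make most heme of the embryo, for hemoglobin, and at these stages they arise in yolk sac blood islands and then in fetal liver.

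The promoters of Alas1, Alas2 and Cpox are shown because Alas1 and Alas2 encode the same step and differed in their pattern, and because Cpox was the member highest in liver. Each line gives the 250 bases before the outermost annotated start, 5′ to 3′ on the strand of the gene, from RefSeq on GRCm38.p6. Capitals mark GATAA, the core read by GATA factors, and CACCC, the core read by KLF1, on either strand (TTATC and GGGTG on the other).
Alas1, chr9:106247955-106248204, minus strand: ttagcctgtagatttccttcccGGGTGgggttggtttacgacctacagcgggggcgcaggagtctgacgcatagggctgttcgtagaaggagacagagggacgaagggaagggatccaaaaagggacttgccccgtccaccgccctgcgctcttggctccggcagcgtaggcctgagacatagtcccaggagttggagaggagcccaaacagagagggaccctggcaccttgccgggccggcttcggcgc
Alas2, chrX:150547167-150547416, plus strand: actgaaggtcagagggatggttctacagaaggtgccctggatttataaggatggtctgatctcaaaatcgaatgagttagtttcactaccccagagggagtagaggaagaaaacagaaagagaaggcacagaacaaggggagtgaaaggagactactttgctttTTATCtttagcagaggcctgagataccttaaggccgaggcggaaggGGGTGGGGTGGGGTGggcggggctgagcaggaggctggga
Cpox, chr16:58669958-58670207, plus strand: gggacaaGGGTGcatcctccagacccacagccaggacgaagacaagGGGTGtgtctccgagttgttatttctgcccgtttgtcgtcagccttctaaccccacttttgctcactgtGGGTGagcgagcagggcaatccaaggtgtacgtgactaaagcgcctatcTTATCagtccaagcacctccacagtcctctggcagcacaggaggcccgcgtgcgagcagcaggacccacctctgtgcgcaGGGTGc
GATAA occurred 1 time in the Alas2 promoter and 1 time in that of Cpox, where either match began 86 bases before the start, and 0 times in Alas1. CACCC occurred 3 times in Alas2, 4 times in Cpox and 1 time in Alas1. Over 27025 RefSeq promoters of the same length, 23.0% held GATAA and 51.3% held CACCC. The Alad, Uros, Urod and Ppox windows held 0 matches to either. Alas1, Alad and Uros have a further annotated start, whose window was not searched. The Uros window (chr7:133709296-133709545) lies inside the annotated span of Uros and overlaps that of Bccip (from 133709333). The Uros H3K4me3 peak and methylation near its start, given below, also cover part of Bccip. A match is a description of these letters and not a binding site.

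GC content was 62.4% in the Alas1 window, 51.2% in Alas2 and 58.8% in Cpox, against a median of 52.0% over all promoters, and CpGs numbered 16, 4 and 11 against a median of 6. The motifs CACGTG (6.04% of promoters), CCAAT (34.5%) and GCGCATGC (2.31%) were also searched on both strands. CACGTG was found 1 time each in Alad, Uros and Urod, CCAAT 2 times in Alad, 1 time in Urod and 4 times in Ppox, and GCGCATGC in 0 of the 7 promoters searched.

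On GRCm38.p6, Alas1 spans chr9:106233455-106247954, Alas2 chrX:150547417-150570622, Alad chr4:62505984-62520063, Uros chr7:133686142-133710467, Urod chr4:116989965-116994436, Cpox chr16:58670208-58680391 and Ppox chr1:171276991-171281193. Alas2 lies within the annotated span of Apex2, and Uros overlaps Bccip by 1135 bases. Whether strand was used in counting is not given in the sources used here, so reads of these overlapping genes may be shared in any library. The 2 Alas2 transcripts, NM_009653 and NM_001102446, had similar counts in each library (136 and 135 in E12.5 ysE, 34776 and 30032 in liver B), so their reads could not be separated and NM_009653 stands for the gene.

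The labelled tissues were compared with their defining markers. The 6 visceral endoderm markers (Afp, Ttr, Amn, Cubn, Apoa4, Hnf4a) summed to 41474 RPKM (reads scaled to transcript length and library size) in ysE at E12.5 and 8791 to 9801 in ysE at E9.25. Their sums were 961 to 1705 in mesoderm, 1459 to 2624 in liver and 101 to 1081 in cystic EBs. Afp made up most of the sum in E12.5 ysE (35558 RPKM) and in liver (1396 and 2471). Against liver, Amn and Cubn were higher in cystic EBs and Afp and Hnf4a lower, where 24.6% of transcripts were higher and 20.9% lower. The 13 erythroid markers in the tables, of 15 listed, summed to 36288 to 46014 RPKM in mesoderm and 2701 to 4272 in liver. Their sums were 898 to 1074 in E9.25 ysE, 238 in E12.5 ysE and 11.6 to 134 in cystic EBs. Embryonic globins made up most of the sum in mesoderm (Hbb-y 18741 and 13955 RPKM, Hbb-bh1 21222 and 16453) and in E12.5 ysE (Hbb-y 198). In liver, the 5 hepatocyte markers summed to 376 to 797 RPKM, against 208 in E12.5 ysE and at most 99.7 elsewhere. Hnf4a, which is also on the visceral endoderm list, gave 87.1 and 98.4 RPKM of the E9.25 ysE sums. The 6 markers of mesoderm, mesothelium and endothelium summed to 407 to 410 RPKM in mesoderm and at most 132 elsewhere. The 4 macrophage markers in the tables summed to 2.24 to 16.3 RPKM over all libraries, and the 3 megakaryocyte markers to 69.4 to 128 in mesoderm and liver and at most 5.07 elsewhere. Pluripotency markers (3) summed to 64.3 to 137 RPKM in cystic EBs and to at most 5.53 in any tissue library. Between mesoderm and liver, which also differ in protocol, 3 of the 13 erythroid markers, the embryonic globins Hba-x, Hbb-y and Hbb-bh1, were higher in mesoderm and 5 (Klf1, Slc4a1, Ank1, Ermap and Hbb-b1) were lower, where 21.0% of all transcripts were higher and 17.8% lower. The part of red cells in the results below was not tested. In bulk RNA, fewer cells of a type and less RNA per cell cannot be told apart.

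Alas2 separated mesoderm and liver from the rest, and Alas1 did not. Alas1 stood at 5.63 and 6.85 RPKM in liver (A and B), 9.07 and 8.57 in mesoderm, 14.4 and 17.3 in ysE at E9.25, 5.65 in ysE at E12.5, 7.77 and 7.01 in d10 cystic EBs and 8.76 and 7.38 in d15 cystic EBs. E9.25 ysE was above every other library. Alas2 stood at 108 and 230.2 RPKM in liver, 128 and 103 in mesoderm, 3.23 and 3.90 in ysE at E9.25, 1.59 in ysE at E12.5, 2.08 and 0.795 in d10 cystic EBs and 0.962 and 1.34 in d15 cystic EBs. Mesoderm and liver did not overlap with any other library, and cystic EBs and E12.5 ysE did. Alas2 made up 92.3% to 97.1% of the summed Alas1 and Alas2 RPKM in mesoderm and liver, and 9.90% to 22.0% in cystic EBs and both stages of ysE.

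**Figure D1:**
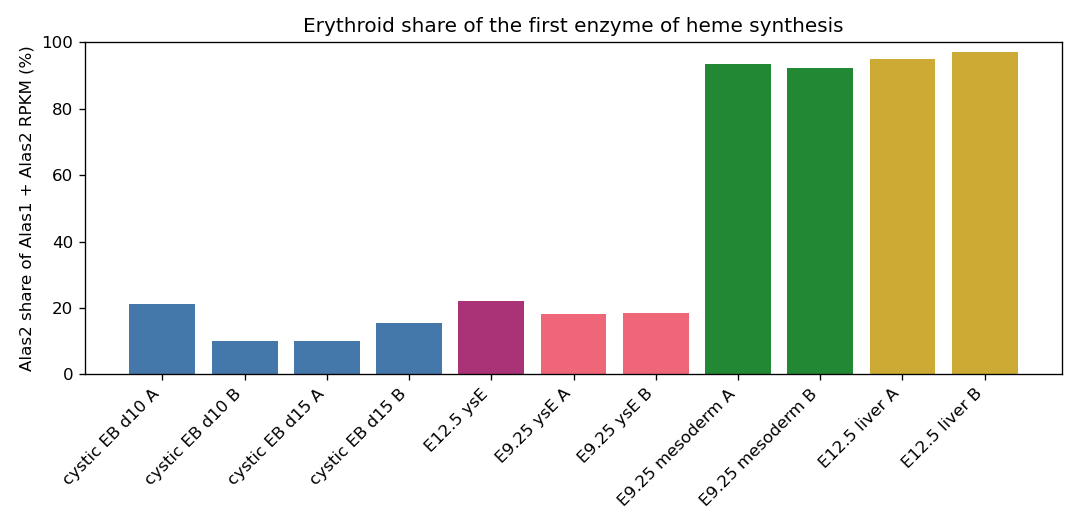
Share of Alas2 in the summed RPKM of Alas1 and Alas2 (y axis, percent), 1 bar for each of the 11 libraries, coloured by tissue. Bars of mesoderm and liver reach 92.3% to 97.1%, and the other bars stay at or below 22.0%.

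Among the enzymes of the cytosol, Alad stood at 27.3 and 54.4 RPKM in liver, 167 and 159 in mesoderm, 30.3 and 40.7 in ysE at E9.25, 65.9 in ysE at E12.5, 4.30 and 14.9 in d10 cystic EBs and 4.0 and 13.0 in d15 cystic EBs. Every cystic EB library was below every tissue library, and mesoderm was above the rest. Uros ranged from 2.64 to 3.83 RPKM in cystic EBs and was 6.38 in ysE at E12.5, 13.1 and 12.1 in ysE at E9.25, 36.9 and 32.3 in mesoderm and 17.0 and 22.8 in liver. Its 5 tissues did not overlap. Urod ranged from 17.4 to 23.1 RPKM in cystic EBs and was 43.9 in ysE at E12.5, 38.4 and 44.0 in ysE at E9.25, 128 and 110 in mesoderm and 115 and 226 in liver. For Urod, E12.5 ysE lay between the E9.25 ysE libraries.

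Of the enzymes that complete heme, Cpox had the highest level of any member, 472 and 555 RPKM in liver, against 109 and 119 in mesoderm, 38.4 and 35.6 in ysE at E9.25, 19.8 in ysE at E12.5 and 32.9, 16.1, 36.7 and 20.7 in cystic EBs (d10 A, d10 B, d15 A, d15 B). Cpox in E12.5 ysE lay within the range of cystic EBs. Ppox stayed low throughout, at 3.22 to 4.39 RPKM in cystic EBs, 5.72 in ysE at E12.5, 3.96 and 4.14 in ysE at E9.25, 9.92 and 9.12 in mesoderm and 6.99 and 12.9 in liver. Fech ranged from 6.86 to 11.1 RPKM in cystic EBs and was 46.9 in ysE at E12.5, 28.0 and 30.6 in ysE at E9.25, 65.2 and 69.2 in mesoderm and 47.5 and 85.0 in liver. On TMM-scaled counts, mesoderm lay between the liver libraries for Ppox and Fech and below both for Urod.

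**Figure D2:**
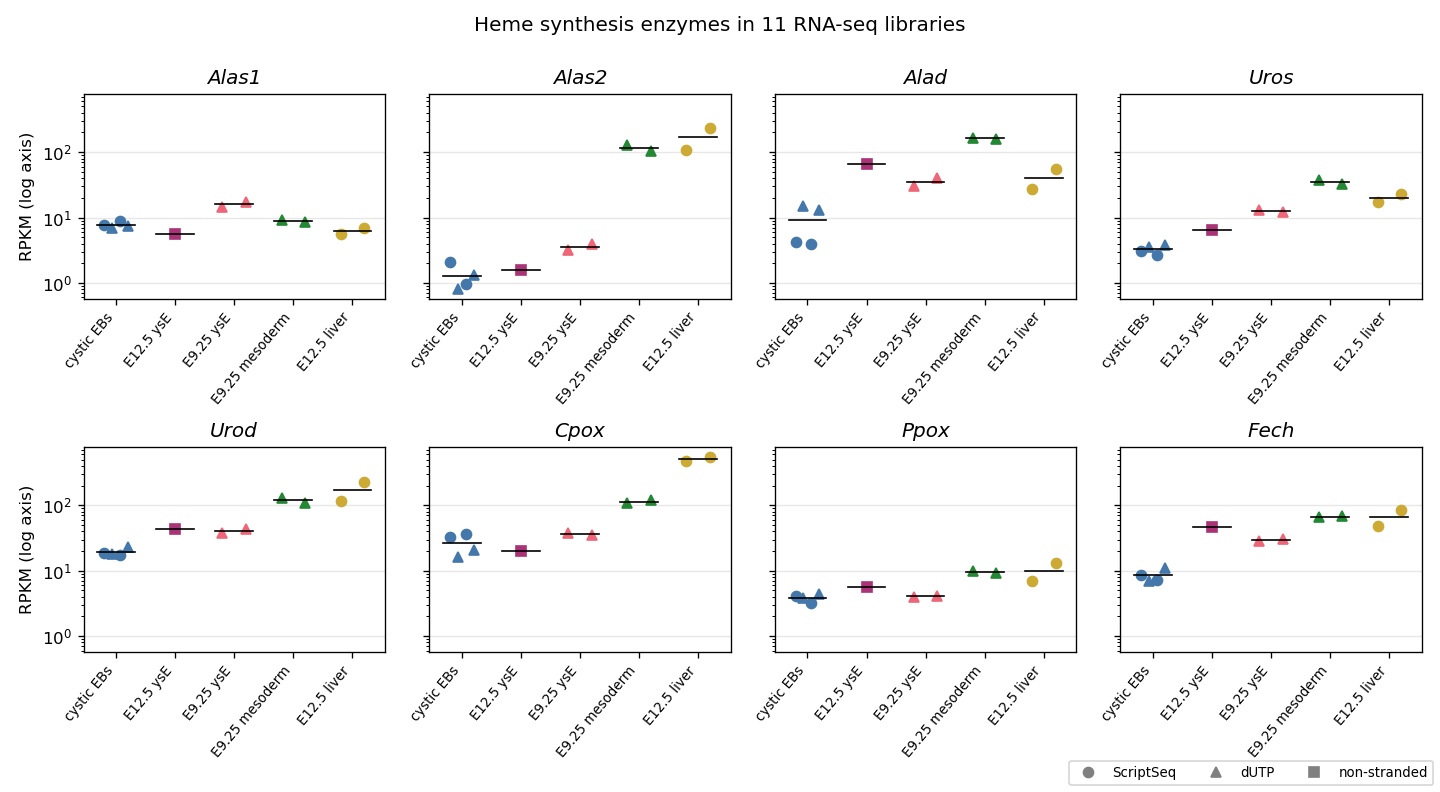
RPKM (log axis) of each heme synthesis enzyme, 1 point for each of 11 libraries by tissue, with the library protocol as symbol and the mean as a bar. Alas2 rises from at most 3.90 RPKM in cystic EBs and ysE to at least 103 in mesoderm and liver, and Alas1 stays between 5.63 and 17.3.

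Within a library, the order of the members by RPKM differed between tissues. Cpox led in liver (81.0 to 83.8 times the lowest member, Alas1), Alad in mesoderm and E12.5 ysE, and Urod in E9.25 ysE. Alas2 was the lowest member in all cystic EB and ysE libraries. Across the 11 libraries, Alas2 had Pearson r of log2(RPKM + 1) of 0.95 with Urod, 0.93 with Ppox and 0.92 with Cpox. Its r was 0.89 with Uros, 0.83 with Fech and 0.67 with Alad. Alas1 had r between -0.31 and 0.16 with the other 7 members. These are descriptions over 11 libraries that fall into few tissues and share their protocols.

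Cystic EBs were first set against the tissues that the study asks about, on counts of all transcripts with edgeR's quasi-likelihood test and Benjamini-Hochberg adjustment. Log2 fold changes are given with a standard error, derived as the absolute log2 fold change over the square root of the test's F statistic. Nothing marks the libraries of a tissue as separate cultures beyond the clones and pooled litters, so the p-values measure the spread between these samples. The 4 cystic EB libraries are 2 clones at 2 days, entered as 4 replicates. For a clone, deviations from the day mean correlated between d10 and d15 at r = 0.638. They are therefore not 4 independent units, and p-values of cystic EB comparisons may be too small. The test fits 1 spread for a transcript over all 5 groups. Every comparison between tissues thus also draws on groups outside it, among them cystic EBs, which mix clone, sex and protocol. E12.5 ysE is 1 library, so in each of its comparisons the spread comes from the other groups and the library is assumed to vary like them. The 4 cystic EB libraries enter all 4 of these comparisons, which are therefore not independent.

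Against the 1 library of E12.5 ysE, with its spread taken from the other groups, 4 of 8 members passed at an adjusted p under 0.01, the limit set in the study, and all 4 were lower in cystic EBs. Of 24858 transcripts 23.3% passed in either direction, 3106 of them lower and 2688 higher. Alad was lower by 3.24 ± 0.59 on the log2 scale (9.44-fold, adjusted p = 0.00237) and Fech by 2.84 ± 0.29 (7.17-fold, adjusted p = 0.00011). Urod fell by 1.56 ± 0.29 and Uros fell by 1.33 ± 0.23. Alas1 (0.09 ± 0.25), Alas2 (-0.68 ± 0.49), Cpox (0.07 ± 0.44) and Ppox (-0.93 ± 0.31, adjusted p = 0.0356) did not pass. The median of the members was -1.13, against 0.42 over all transcripts. Only Fech passed in limma on log2(RPKM + 1) and in a fit of these 2 groups alone.

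Against E9.25 ysE, 7 members were lower and 0 higher at an adjusted p under 0.05, where 23.2% of transcripts were lower and 27.1% higher. Alad fell by 2.43 ± 0.51, Uros fell by 2.40 ± 0.19, Fech fell by 2.25 ± 0.25 and Alas2 fell by 1.92 ± 0.38. Urod and Alas1 were lower by 2.93-fold and 2.79-fold. Ppox (-0.52 ± 0.25, adjusted p = 0.103) did not pass. Cpox (-0.92 ± 0.33, adjusted p = 0.0408) passed only narrowly and its call was lost in 13 of the alternatives, with an adjusted p of up to 0.194. The median of the members was -1.74, against 0.17 over all transcripts. In dUTP libraries alone the same 7 members passed, with Alad at -1.70 ± 0.18 and Cpox at -1.38 ± 0.17.

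Against E9.25 mesoderm, 7 members were lower and 0 higher, where 15.0% of transcripts were lower and 13.9% higher. Alas2 fell by 6.61 ± 0.42 (adjusted p = 2.44e-05), Alad fell by 4.31 ± 0.53, Uros fell by 3.54 ± 0.19 and Fech fell by 3.13 ± 0.25. Urod, Cpox and Ppox were lower by 6.75-fold, 4.66-fold and 2.70-fold. Alas1 (-0.32 ± 0.19, adjusted p = 0.223) did not pass. The median of the members was -2.94, against 0.03 over all transcripts. In dUTP libraries alone 7 members were lower as well, with Alas2 at -6.88 ± 0.29 and Alad at -3.67 ± 0.19.

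Against E12.5 liver, 7 members were lower and 0 higher, where 20.9% of transcripts were lower and 24.6% higher. Alas2 fell by 7.36 ± 0.43 (165-fold), Cpox fell by 4.59 ± 0.34 (24.1-fold), Urod fell by 3.48 ± 0.25 and Fech fell by 3.30 ± 0.25. Uros, Alad and Ppox were lower by 7.65-fold, 5.69-fold and 3.24-fold. Alas1 was at -0.02 ± 0.19 (adjusted p = 0.95). The median of the members was -3.12, against 0.20 over all transcripts. In ScriptSeq libraries alone the same 7 passed, with Alad at -3.60 ± 0.37 and Cpox at -4.18 ± 0.24.

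**Figure D3:**
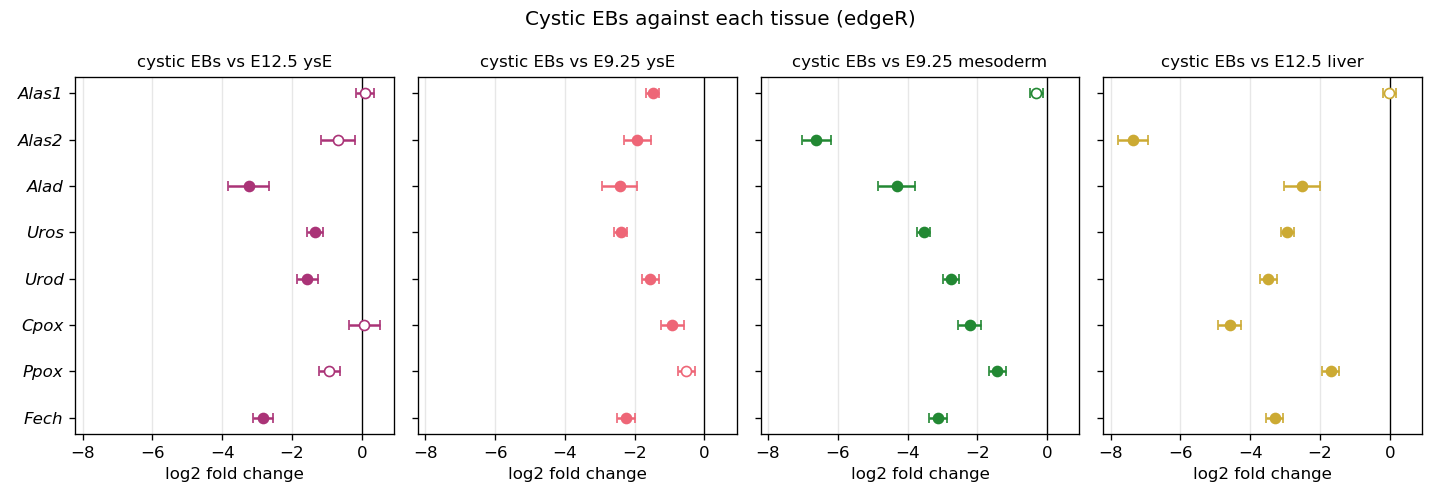
Log2 fold change of cystic EBs over each tissue (x axis, bars are standard errors derived from edgeR's F statistic). Points are filled where the adjusted p passed (0.01 for E12.5 ysE, 0.05 otherwise). Filled points all lie below 0, and Alas1 is filled only against E9.25 ysE.

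Alad and Cpox differed between the cystic EB clones on both days, in opposite directions. On TMM-scaled counts, Alad in JN was 3.55 times its level in A9 at d10 and 2.93 times at d15, and Cpox was 0.501 and 0.506 times. Alas2 was 0.393 times at d10 and 1.25 times at d15. For the other 5 members these ratios lay between 0.758 and 1.38. The differences were not tested, because clone, sex and protocol cannot be told apart. Alas2 lies on the X chromosome. Between d15 and d10, 0 of 8 members passed in edgeR, where 0% of 22452 transcripts were higher and 0% lower. At an unadjusted p under 0.05 there were 304 transcripts, or 2392 with the ES clone as a replicate block, which also called 0, and DESeq2 called 11 higher and 0 lower, with 0 members among them.

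Between the stages of ysE, with 1 library at E12.5 and its spread taken from the other groups, Alas1 was lower at E12.5 (-1.57 ± 0.29, adjusted p = 0.0132), the 1 member of 8 that passed, where 4.57% of transcripts were lower and 3.90% higher. Uros (-1.06 ± 0.29, adjusted p = 0.0507) did not pass, nor did Urod (0.01 ± 0.35), Alad (0.81 ± 0.73) or Fech (0.60 ± 0.35). Without either E9.25 ysE library 0 members passed, with Alas1 at an adjusted p of up to 0.0751. RLE scaling moved the median of all transcripts from -0.21 to -0.04 and the share of higher calls from 46.0% to 58.6%.

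Against liver, the 1 library of E12.5 ysE had 4 members lower and 0 higher, where 23.7% of transcripts were lower and 22.6% higher. Alas2 fell by 6.69 ± 0.79 (103-fold) and Cpox fell by 4.66 ± 0.62 (25.3-fold). Urod fell by 1.92 ± 0.39 and Uros fell by 1.60 ± 0.29. Alad (0.73 ± 0.73), Fech (-0.46 ± 0.37), Ppox (-0.76 ± 0.37) and Alas1 (-0.11 ± 0.27) did not pass. The median of the members was -1.18, against -0.26 over all transcripts.

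Within the E9.25 yolk sac, Alas1 was higher in ysE than in mesoderm (1.17 ± 0.22, adjusted p = 0.00355) and the other 7 members were lower, where 13.7% of transcripts were higher and 16.9% lower. Alas2 fell by 4.69 ± 0.52, Alad fell by 1.88 ± 0.63, Cpox fell by 1.30 ± 0.39 and Urod fell by 1.20 ± 0.29. Uros fell by 1.14 ± 0.22. The standard error of Alad also draws on cystic EBs, whose clones differed. Between its E9.25 replicates, Alad in B stood at 1.33 times A in ysE and 0.994 times A in mesoderm. Without E9.25 ysE A, ysE B or mesoderm A the lower calls numbered 2, Alas2 and Uros, and without mesoderm B 3, with Urod added, while Alas1 stayed higher. Cpox and Ppox lost their call in each of these 4 fits, and Alad and Fech did so in these and in 3 further alternatives each.

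Mesoderm (dUTP libraries) and liver (ScriptSeq libraries), where tissue and protocol cannot be told apart, differed in 2 members. Alad was higher in mesoderm (1.80 ± 0.63, adjusted p = 0.046) and Cpox was lower (-2.37 ± 0.41, adjusted p = 0.00247), where 21.0% of transcripts were higher and 17.8% lower. Uros (0.60 ± 0.22, adjusted p = 0.057), Urod (-0.72 ± 0.29, adjusted p = 0.0753) and Alas2 (-0.75 ± 0.45) did not pass. The call of Alad was lost in 8 alternatives, including RLE scaling and leaving out any mesoderm, liver or E9.25 ysE library, and that of Cpox in none. RLE scaling moved the median of all transcripts from 0.09 to -0.02. Alad and Cpox also differed in these directions between the dUTP and ScriptSeq libraries of cystic EBs, which also differ in clone and sex. There Alad stood at 3.55 and 2.93 times, against a fold of 3.49 here. Cpox stood at 0.501 and 0.506 times, against a fold of 5.17 lower here. Liver B exceeded liver A by 2.08-fold for Alas2, 1.94-fold for Alad and 1.92-fold for Urod, but by 1.14-fold for Cpox.

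Partners that supply the pathway were counted from a list of 15 genes for precursor import, porphyrin transport and iron-sulfur clusters. In cystic EBs 9 were lower than in E12.5 ysE, 13 than in E9.25 ysE, 11 than in mesoderm and 10 than in liver, and 0 were higher in any of these. Over all transcripts the lower shares were 23.2% against E9.25 ysE, 15.0% against mesoderm and 20.9% against liver, and 3106 of 24858 were lower against E12.5 ysE. Slc25a37 (mitoferrin 1, which brings iron into the mitochondrion) averaged 97.0 RPKM in liver, 42.5 in mesoderm, 4.39 in ysE at E9.25, 3.82 in ysE at E12.5 and 1.99 in cystic EBs. Abcb10, its mitochondrial partner, averaged 132, 48.2, 19.3, 19.6 and 8.39 RPKM in the same order. Slc25a38, the mitochondrial glycine carrier, averaged 5.43 RPKM in cystic EBs and 14.6 to 24.4 in the tissues. Slc25a28, also on the list, was lowest in liver, at 2.60 RPKM. It averaged 7.56 in mesoderm, 10.6 in ysE at E9.25, 15.0 in ysE at E12.5 and 3.95 in cystic EBs.

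Of 11 genes for heme transport, breakdown and sensing in the tables, 13 being listed, cystic EBs had 5 lower and 0 higher against E12.5 ysE, 4 lower and 2 higher against E9.25 ysE, 3 lower and 3 higher against mesoderm, and 7 lower and 3 higher against liver. Over all transcripts, 23.2% were lower and 27.1% higher against E9.25 ysE, 15.0% and 13.9% against mesoderm, 20.9% and 24.6% against liver, and 3106 and 2688 of 24858 against E12.5 ysE. Hmox1, the inducible heme oxygenase, stood at 166 RPKM in E12.5 ysE and at 5.54 to 20.01 in the other libraries, and was higher at E12.5 than at E9.25 in ysE (3.12 ± 0.38, with the spread of the 1 E12.5 library taken from the other groups). Blvrb, a biliverdin reductase, averaged 68.9 RPKM in mesoderm, 99.2 in liver and 3.87 to 14.0 elsewhere. Eif2ak1, the heme-regulated eIF2 alpha kinase, averaged 58.6 RPKM in liver, 17.0 in mesoderm and 4.70 to 9.31 elsewhere. Beside the same shares, of 10 regulators, cystic EBs had 2 lower and 2 higher (Zfpm1, and Gata1 at 0.149 against 0.013 RPKM) against E12.5 ysE, 4 lower and 0 higher against E9.25 ysE, 6 lower and 0 higher against mesoderm, Gata1 and Klf1 among them, and 7 lower and 2 higher (Aco1 and Ireb2) against liver.

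The genes most like each member over the 11 libraries were taken from 11230 protein-coding genes. For Alas2 they were Epb4.2, Rhag, Klf1 and Gata1 (r of at least 0.99), for Uros Tmem14c, Slc43a3, Hbb-y and Hba-a1 (0.97 to 0.99) and for Urod Fam46c, Beta-s, Gpx1, Gmpr and Bpgm (0.97 to 0.99). For Cpox they were Rexo2, Slc25a21, H2-T24, Ank1 and Hcls1, and for Fech Mogs, Gpx1, Pklr, Pkig and Pon2. For Alas1 they were Slc38a9, Dolpp1, Gm10639, Coro1c and Ate1 (0.92 to 0.97). For Alad they were March2, Eps15, Haus8, Anapc5 and 1190007F08Rik, and for Ppox 3110056O03Rik, Cdkn2d, Urod, Cyth4 and Fam46c. By Spearman rho only 0 to 2 of the 5 remained for a member.

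H3K4me3, a histone mark of active promoters, was read from 1 ChIP library of whole E12.5 VYS, which holds endoderm, mesoderm and blood. A peak lay within 1 kb of the start of all 8 members, as it did for 59.2% of 17492 protein-coding genes. Alad, Uros, Cpox and Fech had the highest score the caller gives here (3100). Many peaks share that score, so its tied rank was at percentile 87.0 of all 22343 peaks. Ppox scored 2877 (percentile 73.1), Alas1 2112 (65.2) and Urod 1913 (63.1). Of the 2 Urod peaks, the one that overlaps the start scored 1884. The other (chr4:116994883-116996351) lies upstream and reaches the annotated span of Hectd3 (from 116995296), as does the 1 kb methylation window of Urod. For Alas1 and Ppox, the peak and this window likewise reach 4930500F10Rik (from 106248072) and Usp21 (from 171281949). The Alas2 peak scored 147, at percentile 25.7 of all peaks, and did not overlap the annotated start, whereas each of the other 7 members had a peak that did. It lay downstream, at chrX:150547867-150548939. For Fech the start was taken as the gene end that carries a peak, so its peak is fixed by that choice.

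DNA methylation was read from 6 whole genome bisulfite libraries of E12.5 ysE, E12.5 liver and d15 cystic EBs, 1 from either reciprocal cross (CxF and FxC) of each. These came from crosses of CAST and FVB mice, and the cystic EBs from ES clones of such crosses, so their strains are not those of the RNA libraries. Alas2 was not analysed here. Reads were summed over CpGs, so a read that covers several CpGs counts once for each. Fewer separate reads may therefore lie behind every read number given here. Coverage was thin, with 0 to 34 such reads within 1 kb of a start. With 2 libraries against 2 an exact permutation test cannot reach the threshold, so values are described. In ysE, Alad had 0 methylated of 24 reads over both libraries, Uros 0 of 34, Fech 0 of 27 and Cpox 7 of 56. In liver these were 5 of 25, 5 of 35, 19 of 39 and 0 of 8. In cystic EBs they were 4 of 4, 11 of 23, 3 of 26 and 11 of 15. These totals had no minimum per library. In cystic EBs all 4 Alad reads were from FxC, and Uros had 22 reads from CxF and 1 from FxC. Cpox in liver had 6 reads from CxF and 2 from FxC. Within 0.5 kb of the start, Alad had 0 reads in either cystic EB library. In ysE it had 0 methylated of 15 (CxF) and 0 of 8 (FxC). Uros there had 0 of 4 (CxF) and 1 of 1 (FxC) in cystic EBs, against 0 of 5 and 0 of 13 in ysE. Cpox had 1 of 3 (CxF) and 0 reads (FxC) in cystic EBs, against 4 of 16 and 2 of 23. For these members the totals therefore set different parts of the window side by side. Urod had 3 of 41 reads methylated in ysE, 3 of 28 in liver and 2 of 24 in cystic EBs, and Ppox 2 of 19, 2 of 10 and 8 of 24. Alas1 had 22 of 33, 11 of 30 and 14 of 22. Over all protein-coding genes the mean of the library medians was 30.5% in ysE, against 47.2% (liver) and 57.6% (cystic EBs). Alas1 stood at 87.5% (24 reads) in ysE CxF and 11.1% (9 reads) in ysE FxC. Within 0.5 kb of its start it had 0 methylated of 1 (CxF) and 0 of 8 (FxC). These libraries thus mostly covered different parts of the window, and their values cannot be read as a difference between them.

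Over the rest of the gene, where 6 to 380 reads stood behind a value, the median of the 7 members was 93.2% and 86.0% in cystic EBs (CxF, then FxC), 81.9% and 90.2% in liver, and 78.4% and 76.0% in ysE. The ysE libraries were the lowest. Over all protein-coding genes the mean of the 2 library medians was lowest in ysE too (72.9%), followed by liver (82.3%) and cystic EBs (85.5%). Alad was methylated at 94.6% and 93.0% in cystic EBs, 85.1% and 89.5% in liver, and 80.0% and 77.1% in ysE, without overlap.

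**Figure D4:**
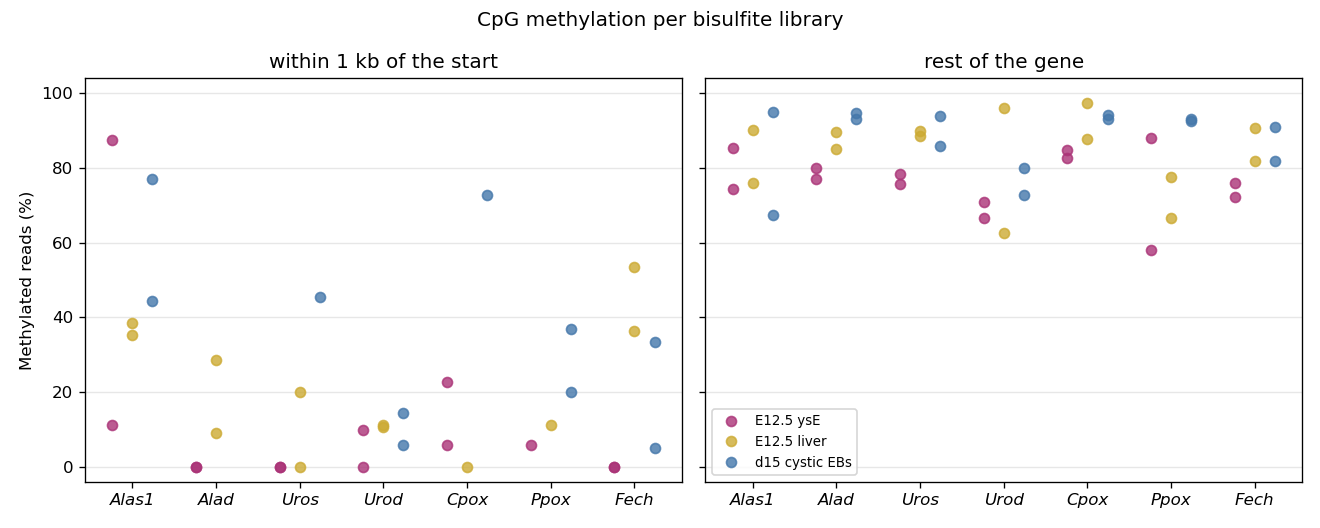
Methylated reads at CpGs (y axis, percent) within 1 kb of the start (left) and over the rest of the gene (right). Each of 6 bisulfite libraries with at least 5 reads, counted at each CpG, gives 1 point. Alad, Uros and Fech lie at 0 in both ysE libraries on the left, and on the right the lowest point is at 58.1%.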

How the data were processed

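RNA-seq, bisulfite and H3K4me3 files were used as deposited. The authors aligned reads to mm10 with GSNAP and deposited raw counts for RefSeq transcripts and RPKM values made with RSeQC and custom scripts. For bisulfite libraries they deposited the percent of methylated reads per CpG and the count of reads behind it, called with BisSNP, and for H3K4me3 peaks with the MACS 1.4.2 score. Counts were tested with edgeR 4.0.16 (filterByExpr, TMM, quasi-likelihood test, 5 groups, Benjamini-Hochberg over all transcripts), in R 4.3.3, with limma 3.58.1 on log2(RPKM + 1) or (RPKM + 0.1) and DESeq2 1.42.0 as alternatives. The test was also run on simulated counts, and the outcome is not reported here. RPKM compares genes within a library, TMM-scaled counts compare libraries, and intervals of depth cover counting error only. RPKM set side by side across libraries is a description, since it summed to 263160 (liver A) to 571600 (mesoderm A) per library. The transcript of highest mean count stood for its gene. Every member was named, with the 5 genes of highest Pearson r at a mean RPKM of at least 1, of which some are not reported here. Methylation was summed within 1 kb of the start, or over the rest of the gene, with a read counted at each CpG it covers. Percentages within 1 kb used at least 5 reads per library, and read totals over both libraries had no minimum. The members and gene lists were chosen with earlier results of these data known. The replicate letters of d10 and d15 cystic EBs mark the ES clone, and same-letter deviations correlated at r = 0.638.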

Additional observations from a re-analysis of the deposited data

Results flagged for a closer look

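Between d10 and d15, the ratio of TMM-scaled counts lay on opposite sides of 1 in the cystic EB clones for 6 of 8 members, and for 40.5% of 23336 transcripts with a count in all 4 libraries. There is 1 library per clone and day, and the difference was not tested. Alas2 stood at 0.492 times its d10 level in A9 and 1.57 times in JN, and Fech at 0.881 and 1.505 times. For Alas1 the ratios were 1.20 and 0.98, for Uros 0.909 and 1.02, for Urod 0.992 and 1.20 and for Ppox 0.843 and 1.08.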

How the results depend on the processing

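Of 40 calls of a member in a comparison, 29 passed in every alternative run, among them all 14 of cystic EBs against mesoderm and liver. The replicate block (letter or ES clone) was run in the 6 comparisons without E12.5 ysE, which has 1 library, and changed the count of called members in 1 of them, mesoderm against liver, where 2 were higher. No alternative that changed the sign of a member carried a call. The causes of the changes below were not tested. Thin bisulfite coverage, 1 library of E12.5 ysE and 2 of each other tissue limit precision.

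Lower members in cystic EBs against E12.5 ysE numbered 1 in limma on log2(RPKM + 1), 2 at log2(RPKM + 0.1) and 1 with only the 2 groups. For E12.5 against E9.25 ysE, 2 were lower in DESeq2 and with 1 transcript per gene, 4 lower and 3 higher with only the 2 groups, and 0 to 2 lower when a library was left out. For E9.25 ysE against mesoderm, leaving out a library gave 2 to 7 lower. For mesoderm against liver, the higher members numbered 0 with RLE scaling and without Rn45s, 2 in both limma fits and with only the 2 groups, and 0 to 2 when a library was left out, and the lower members numbered 2 with RLE scaling and DESeq2 and 1 to 2 when a library was left out.

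Calls over all transcripts moved by over 1.5 times as well. For cystic EBs against E12.5 ysE, 2688 higher and 3106 lower became 783 and 1133 with only the 2 groups, and DESeq2 and limma (RPKM + 0.1) gave 4439 and 4296 higher. Between ysE stages, 969 higher and 1137 lower became 2046 and 1891 in DESeq2, 5270 and 5289 with only the 2 groups, 704 lower in limma (RPKM + 1), and 153 and 196 without E9.25 ysE A. For E9.25 ysE against mesoderm, 3401 higher and 4212 lower became 6540 and 6620 with only the 2 groups, and 6146 higher with the replicate block. Against E9.25 ysE, 5758 lower in cystic EBs became 3582 and 3668 in limma. Leaving out a library gave 924 to 3766 higher and 1588 to 4006 lower for cystic EBs against mesoderm (3460 and 3727 with all), 3345 to 6550 and 3323 to 5505 against liver (6112 and 5185), 3986 to 6942 and 3466 to 6098 against E9.25 ysE (6742 and 5758), 1372 to 3819 and 2298 to 4633 for E9.25 ysE against mesoderm, and 3022 to 5672 and 1834 to 5110 for mesoderm against liver (5219 and 4435).

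Uncalled log2 fold changes changed sign as follows. Alas1 in cystic EBs against liver was 0.27 and 0.31 in limma (RPKM + 1 and + 0.1) and 0.11 in ScriptSeq libraries, Urod in E12.5 against E9.25 ysE -0.0027 without a filter and -0.050 with 1 transcript per gene, and Fech in mesoderm against liver 0.079 and 0.081 in limma. Leaving out a library gave -0.15 to 0.25 for Cpox against E12.5 ysE, -0.13 to 0.11 for Alas1 against liver, -0.23 to 0.015 for Alas1 in E12.5 ysE against liver, -0.067 to 0.14 for Urod between ysE stages, and -0.62 to 0.22 for Ppox and -0.52 to 0.28 for Fech in mesoderm against liver. For d15 against d10 it gave -0.11 to 0.32 for Alas1, -0.86 to 0.50 for Alas2, -1.20 to 0.94 for Alad, -0.25 to 0.11 for Uros, -0.35 to 0.84 for Cpox, -0.21 to 0.057 for Ppox and -0.034 to 0.41 for Fech.

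The median promoter methylation of the members (2.42% in ysE, 17.7% in liver, 29.1% in cystic EBs) rests on few reads. In cystic EBs it is the mean of 41.1% (CxF, 6 members) and 17.1% (FxC, 4 members, without Alad, Uros and Cpox), and the latter was 44.4% over 7 members at 1 or more reads. In ysE it was 4.84% at 1 or more reads, 3.89% at 10 or more, 12.8% at 20 or more and 0% within 0.5 kb, and in liver 28.1% at 10 or more. Within 2 kb it was 20.5%, 46.0% and 71.2%, and within 0.5 kb 13.9% in liver. Liver at 20 or more reads gave no value, as 1 library was left.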
